A study of Mus musculus with 94 samples.

Results

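The genes described here are 10 components of the JAK-STAT pathway: the kinases Jak1 and Jak2, the transcription factors Stat3, Stat5a, Stat5b and Stat6, and the feedback inhibitors Socs1, Socs2, Socs3 and Cish. They were taken by name from a table of 46078 mouse gene identifiers, and all 10 were in it once. The cells were single basophils, sorted one per well from marrow of female C57BL/6 mice. Basophils are rare granulocytes that bind IgE through the receptor FcεRI. One gate took live lineage-negative, Sca1-negative, FcεRI-positive cells without surface CD34, and the other took such cells with CD34, a surface protein of blood progenitors. No treatment or genetic change is given for either gate. Of the 94 cells, 47 per gate, 92 were kept, 46 per gate.

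Cytokine receptors of the type that binds IL-3, IL-4 or TSLP have no kinase of their own. They carry Janus kinases, which phosphorylate the receptor and then STAT proteins, and the STAT dimers enter the nucleus and bind DNA. IL-3, the main growth and survival cytokine of basophils, acts through the common beta chain, Jak2 and the STAT5 proteins. STAT5 is known to turn on Cish and Socs genes, whose products dampen the receptor complex, so that these transcripts are commonly read as traces of recent cytokine signalling.

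Gene reads of the kept CD34-negative cells summed to 33444417 and those of the CD34-positive cells to 30031728, with 262944 to 938322 and 374011 to 1154738 reads per cell. The median number of gene reads per read of the ERCC spike-in RNA was 6.87 in CD34-negative and 14.4 in CD34-positive cells. All 11 basophil markers checked had reads in both gates, and their summed level was 48560 CPM (counts scaled to 1e+06 gene reads) without CD34 and 99828 CPM with it. They did not all differ in the same direction: relative to gene reads the log2 fold, as defined below, was 1.40 for Mcpt8, 1.37 for Prss34 and 1.33 for Cpa3, and -1.12 for Hdc, -1.47 for Cd200r3 and -1.68 for Itga2. In single cells the sum of the 11 markers ran from 2289 to 142456 CPM without CD34 and from 5931 to 175665 CPM with it. The 10 progenitor markers summed to 593 CPM in the CD34-negative gate, with 0 to 4417 CPM in a cell, and to 7597 CPM in the CD34-positive gate, with 147 to 22502 CPM in a cell. The 7 monocyte and dendritic cell markers summed to 511 CPM and 48.0 CPM, of which Ccr2 alone was 493 and 40.5 CPM. In single cells that sum reached 2388 CPM in the former gate and 813 CPM in the latter, from 0 in both, while Cd14 had 2 and 0 reads. The sums of the other marker lists were, without and with CD34, those of B cells (78.2 and 72.2 CPM), eosinophils (76.7 and 112.3 CPM), neutrophils (19.7 and 67.4 CPM), erythroid cells (7.80 and 27.005 CPM), T cells (8.10 and 3.30 CPM) and mast cells (0.0299 and 7.33 CPM). The part of these markers, and of the difference in gene reads per ERCC read, in the differences between gates was not tested. Fewer cells that hold a transcript and less of it per cell cannot be told apart in a sum over a gate, so the number of cells is given too.

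CD34-negative cell 10 went against its label. It had 1 read of Gata2, a transcription factor of basophils (3.80 CPM, gate median 2825), and 2 reads each of the FcεRI chain genes Fcer1a and Ms4a2 (7.61 CPM each, gate medians 2450 and 1918). Its monocyte and dendritic cell markers summed to 2388 CPM, the highest of its gate, and its basophil markers to 2289 CPM, the lowest. It passed the filters and is in the sums below. Without it the log2 fold defined below was -0.92 in place of -0.91 for Jak1, -0.85 in place of -0.84 for Jak2, 1.09 in place of 1.04 for Socs1 and -0.76 in both cases for the median of the 8 members tested. Some CD34-positive cells stood apart too. Cell 37 had the lowest progenitor sum of that gate (147 CPM, gate median 7480) and the highest monocyte and dendritic cell sum (813 CPM). It also had the gate's highest Jak2 and Stat5b levels. Cells 1, 6, 35, 40 and 41 had basophil sums from 5931 to 12425 CPM (gate median 92110). In cell 41 the progenitor sum, 12854 CPM, was above the basophil sum, 7092 CPM.

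The labels do not say which of the 3 mice a cell came from. Each gate is therefore 1 sample, no test was possible, and no p-value is given. Intervals on reads are exact Poisson 95% intervals and cover counting error only, since the reads carry no molecular identifiers. Differences between gates are log2 folds of CD34-positive over CD34-negative, computed on summed CPM plus a pseudocount of 1 CPM.

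The pathway was expressed unevenly. The kinases were found in every kept cell and each STAT gene, by at least 1 read, in more than 50% of the cells of each gate, while each of the 4 feedback genes had a read in at most 15 of the 92 cells. Per kilobase of exon, the summed level in CD34-negative cells was 163.6 CPM for Jak2, 121.2 for Jak1, 55.2 for Stat6, 44.5 for Stat5b, 9.85 for Stat3, 9.50 for Stat5a, 3.88 for Socs3, 2.97 for Cish, 1.27 for Socs2 and 0.452 for Socs1. In CD34-positive cells the same quantity was 91.3 for Jak2, 64.3 for Jak1, 30.2 for Stat6, 27.8 for Stat5b, 11.5 for Stat5a, 11.3 for Stat3, 1.29 for Socs1, 1.05 for Cish, 0.0115 for Socs3 and 0 for Socs2. Both gates thus had the kinases first, then Stat6 and Stat5b, then Stat3 and Stat5a, and the feedback genes last. Some neighbours in this order could not be separated. The counting intervals of Stat3 and Stat5a per kilobase overlapped in both gates (9.51 to 10.2 and 9.11 to 9.90 CPM in CD34-negative cells), and so did those of Socs1 and Cish in CD34-positive cells. Jak1 stood above Jak2 when the length of the longest coding transcript was used in place of all annotated exons, at 178.5 against 163.6 CPM per kilobase in CD34-negative cells. With that length the order of the feedback genes changed too. In CD34-negative cells Cish was at 6.69, Socs2 at 5.46, Socs3 at 4.39 and Socs1 at 0.452. In CD34-positive cells Cish (2.36) stood above Socs1 (1.29). Stat5a (17.4) stood above Stat3 (15.5) in CD34-negative cells.

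**Figure D1:**
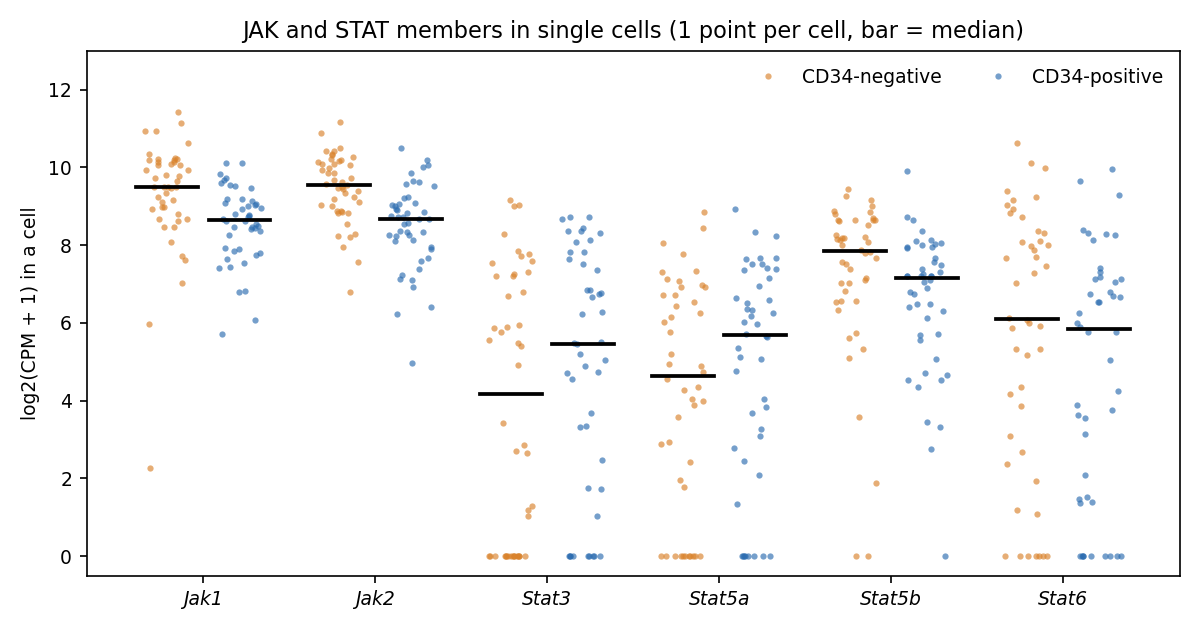
Level of the 6 JAK and STAT genes in each kept cell, as log2 of CPM plus 1, with CD34-negative cells in orange and CD34-positive cells in blue (46 points each) and a black bar at the median. Jak1 and Jak2 have a read in every cell, and Stat3, Stat5a and Stat6 run from 0 to at least 424 CPM within each gate.

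Jak1 (ENSMUSG00000028530, mm10 chr4:101152367-101265282, minus strand) encodes a kinase that pairs with the gamma chain, gp130 and interferon receptors. In CD34-negative cells its level ran from 3.80 to 2726 CPM with a median of 723 CPM, and in CD34-positive cells from 51.3 to 1116 CPM with a median of 401 CPM. The ranges overlapped, yet 37 of 46 CD34-negative cells lay above the CD34-positive median and only 8 of 46 CD34-positive cells above the CD34-negative median. The CD34-negative cell at 3.80 CPM, number 10, had 1 Jak1 read and was the shallowest kept cell and the one nearly without Gata2, Fcer1a and Ms4a2 reads. Summed over the gate, Jak1 stood at 876 CPM (866 to 886) and 465 CPM (457 to 472), a log2 fold of -0.91 (-0.95 to -0.87).

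Jak2 (ENSMUSG00000024789, chr19:29251828-29313080, plus strand) encodes the kinase of the IL-3, GM-CSF and TSLP receptors. Its level ran from 110.1 to 2294 CPM in CD34-negative cells, median 749.8, and from 30.3 to 1457 CPM in CD34-positive cells, median 407. In this case 39 CD34-negative cells were above the CD34-positive median, against 8 CD34-positive cells above the CD34-negative one. The summed levels were 823 CPM (813 to 833) and 459 CPM (451 to 467), a log2 fold of -0.84 (-0.88 to -0.80). Both kinases were therefore lower in CD34-positive cells by a similar amount relative to gene reads. Relative to ERCC reads the direction flipped, to 0.052 for Jak1 and 0.12 for Jak2. That scaling moved the median over all genes from 0.19 to 1.04, so both kinases stood below the median of all genes under either scaling. The cell-to-cell SD of Jak2 was 449 CPM around a mean of 832 in CD34-negative cells and 308 CPM around 456 in CD34-positive cells (n = 46 cells each), so that the difference of the means was smaller than the spread within the CD34-negative gate.

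Stat3, Stat5a and Stat5b are neighbours on chromosome 11. Stat5b (ENSMUSG00000020919) lies at chr11:100780731-100850724 on the minus strand, Stat5a (ENSMUSG00000004043) at chr11:100859351-100885169 on the plus strand and Stat3 (ENSMUSG00000004040) at chr11:100885098-100939540 on the minus strand. The annotated ends of Stat5a and Stat3 overlap by 72 bp on opposite strands, and the strand setting of the counting is not given in the sources used here, so reads of that stretch are uncertain. Stat5a and Stat5b are close paralogs, and reads of their shared stretches are uncertain too.

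Stat5b, one of the STAT5 proteins that act downstream of IL-3, was the most widely found STAT gene, with a read in 43 of 46 CD34-negative and 45 of 46 CD34-positive cells after each cell was drawn down to 200000 gene reads. Drawing makes the gene reads of the cells equal, but not their gene reads per ERCC read. CD34-negative cells ran from 0 to 697 CPM with a median of 228 CPM, and CD34-positive cells from 0 to 961 CPM with a median of 141 CPM. The CD34-negative cells were mostly the higher ones: 30 of 46 lay above the other gate's median, against 12 of 46 CD34-positive cells. The reads of all CD34-negative cells gave 247 CPM (241 to 252) and those of the other gate 154.2 CPM (149.8 to 158.7). The log2 fold was thus -0.67 (-0.75 to -0.60). CD34-positive cell 37 held 14.4% of the reads of its gate, and the fold was -0.86 without it. The sign flipped with ERCC scaling, to 0.29.

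Stat5a, its paralog, ran from 0 to 461 CPM in CD34-negative cells, median 24.1, and from 0 to 483 CPM in CD34-positive cells, median 50.7, and the ranges overlapped almost fully. Here 19 of 46 CD34-negative cells lay above the other gate's median, against 29 of 46 CD34-positive cells. The summed level was 67.8 CPM (64.99 to 70.6) and 81.9 CPM (78.7 to 85.2), a log2 fold of 0.27 (0.15 to 0.39). That value fell to 0.04 with scran size factors and 0.07 with TMM factors, both of which centre the median gene near 0, and it was 1.22 with ERCC scaling. Leaving out single cells moved it between 0.13 (without CD34-positive cell 14) and 0.50 (without CD34-negative cell 11).

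The balance of the STAT5 paralogs therefore differed between the gates. Per kilobase of exon, the summed Stat5b level was 4.69 times that of Stat5a in CD34-negative and 2.42 times in CD34-positive cells. With the length of the longest coding transcript these ratios were 2.71 and 1.40, so Stat5b stayed ahead under both lengths. Cells with more Stat5b than Stat5a per kilobase numbered 37 of 46 and 33 of 46. At 200000 gene reads, 32 CD34-negative cells had a read of both paralogs (69.6%, 54.2% to 82.3%), as had 35 CD34-positive cells (76.1%, 61.2% to 87.4%). Stat5b alone was found in 11 and 10 cells, Stat5a alone in 1 and 1, and neither in 2 and 0. These shares overlapped in their intervals.

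Stat3, the STAT protein of IL-6 and IL-10 family receptors, ran from 0 to 567 CPM with a median of 19.6 CPM in CD34-negative cells and from 0 to 424 CPM with a median of 43.3 CPM in CD34-positive cells. The gates overlapped over nearly the whole range. Summed, it stood at 93.9 CPM (90.6 to 97.2) and 107.4 CPM (103.7 to 111.2). The log2 fold of 0.19 was the same, to 2 decimals, as the median of all genes, and turned to -0.034 with scran size factors and -0.011 with TMM factors. With ERCC scaling it was 1.15, beside 1.04 for the median of all genes. At 200000 gene reads 27 CD34-negative cells had a read (58.7%, 43.2% to 73.0%), against 35 CD34-positive cells (76.1%, 61.2% to 87.4%), and these intervals overlapped.

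Stat6 (ENSMUSG00000002147, chr10:127642986-127660957, plus strand) encodes the STAT protein of the IL-4 and IL-13 receptors. CD34-negative cells ran from 0 to 1574 CPM with a median of 67.6 CPM, and CD34-positive cells from 0 to 991 CPM with a median of 56.0 CPM. The medians lay close together and the gates differed more in their upper cells, with a upper quartile of 308 CPM without CD34 and 140.3 CPM with it. Summed, it stood at 243 CPM (238 to 249) and 132.9 CPM (128.8 to 137.1), a log2 fold of -0.87 (-0.94 to -0.79). CD34-negative cell 21 alone held 16.4% of the reads of its gate, and the fold was -0.65 without it and -1.14 without CD34-positive cell 33. ERCC scaling flipped the sign, to 0.094. Reads of all 4 STAT genes were found together in 14 cells without CD34 (30.4%, 17.7% to 45.8%) and in 23 cells with it (50.0%, 34.9% to 65.1%), again with overlapping intervals.

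**Figure D2:**
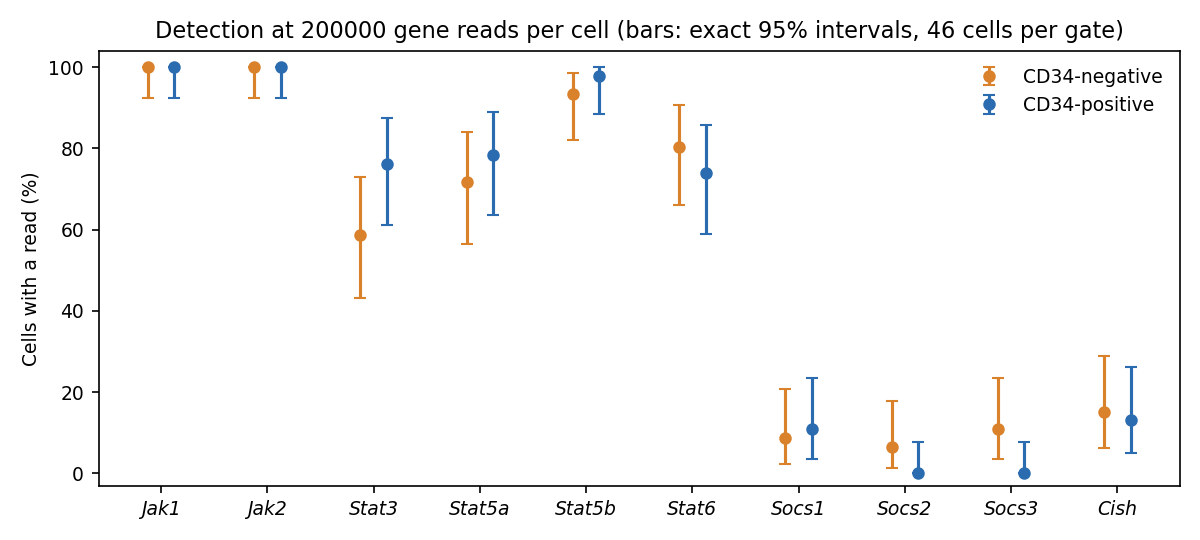
Percent of cells with a read of each gene after drawing 200000 gene reads per cell, with exact Clopper-Pearson 95% intervals over 46 cells per gate (orange CD34-negative, blue CD34-positive). Jak1 and Jak2 are at 100% in both gates, the STAT genes between 58.7% and 97.8%, and the feedback genes between 0% and 15.2%.

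The feedback genes were sparse in both gates. At 200000 gene reads, 15 CD34-negative cells held a read of at least 1 of the 4 (32.6%, 19.5% to 48.0%), as did 10 CD34-positive cells (21.7%, 10.9% to 36.4%). At least 2 of them were found in 4 CD34-negative cells and 1 CD34-positive cell, and in no cell were more than 2 found. Without drawing, 19 CD34-negative and 13 CD34-positive cells had such a read. Most cells of either gate had no feedback transcript that could be found at this depth, and where one was present it was usually alone.

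Cish (ENSMUSG00000032578, chr9:107296026-107302784, plus strand) encodes an SH2 protein that occupies STAT5 docking sites on cytokine receptors. It had reads in 8 CD34-negative cells, at 1.78, 4.25, 8.55, 9.78, 12.3, 131.9, 159.5 and 486 CPM. In CD34-positive cells it had reads in 7, at 1.95, 5.15, 12.4, 13.7, 61.4, 84.8 and 141.3 CPM. The values overlapped, with CD34-negative cells 37 (159.5 CPM) and 21 (486 CPM) above the highest CD34-positive cell. Cell 21 held 64.6% of the Cish reads of its gate. The summed level was 19.1 CPM (17.6 to 20.6) against 6.73 CPM (5.83 to 7.72), a log2 fold of -1.38, and the fold was -0.04 without cell 21 and -0.50 with ERCC scaling. The share of cells with a read was 15.2% (6.34% to 28.9%) and 13.04% (4.94% to 26.3%).

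Socs1 (ENSMUSG00000038037, chr16:10782240-10785536, minus strand) encodes an inhibitor that binds JAK kinases directly. Its reads lay in 4 CD34-negative cells, at 7.10, 9.64, 11.4 and 47.8 CPM, and in 8 CD34-positive cells, from 1.18 to 90.9 CPM. The summed levels were 1.32 CPM (0.956 to 1.77) and 3.76 CPM (3.10 to 4.52), a log2 fold of 1.04. The fold rested on few cells: it was 0.60 without CD34-positive cell 2, 1.74 without CD34-negative cell 37, 1.73 with ERCC scaling and -0.093 when only cells numbered 7 to 42 were used. At 200000 gene reads it was found in 4 and 5 cells.

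Socs2 (ENSMUSG00000020027, chr10:95385362-95417180, minus strand), another STAT5 target, limits growth hormone and related receptors. All 406 of its reads came from CD34-negative cells. Setting the 0 reads of the other gate to a floor of 3 reads in total, the level there was 121.5-fold lower. The counting interval of the ratio had a lower limit of 89.4-fold. The reads came from 6 cells, at 388 CPM in cell 21, 106.3 CPM in cell 38 and under 2 CPM in 4 others. Without cell 21 the fold against that floor was 23.6, and it then rested on cell 38, with 73 reads, since the 4 others had 1 read each. At 200000 gene reads 3 CD34-negative cells had a read (6.52%, 1.37% to 17.9%), against 0 of 46 CD34-positive cells, which allows a share of up to 6.52% by the limit of 3 cells and 7.71% by the exact interval, so a difference in the share of cells was not detectable with this many cells.

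Socs3 (ENSMUSG00000053113, chr11:117966079-117970047, minus strand) encodes the inhibitor of gp130 and G-CSF receptor signalling. It had 375 reads in 6 CD34-negative cells, at 1.09, 11.4, 20.995, 120.0, 141.9 and 209 CPM, and 1 read in 1 CD34-positive cell. The CPM ratio of CD34-negative over CD34-positive was 337, with a counting interval of 54.5 to 14717, and it rests on that 1 read. CD34-negative cell 33 held 38.7% of the reads of its gate, and leaving it out moved the log2 fold from -3.56 to -2.96. The fitted fold also depended on the pseudocount, at -6.41 with 0.1 CPM and -1.08 with 10 CPM. The share of cells at 200000 gene reads was 5 of 46, or 10.9% (3.62% to 23.6%), against 0 of 46, which allows up to 6.52% and 7.71% by the same limits.

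**Figure D3:**
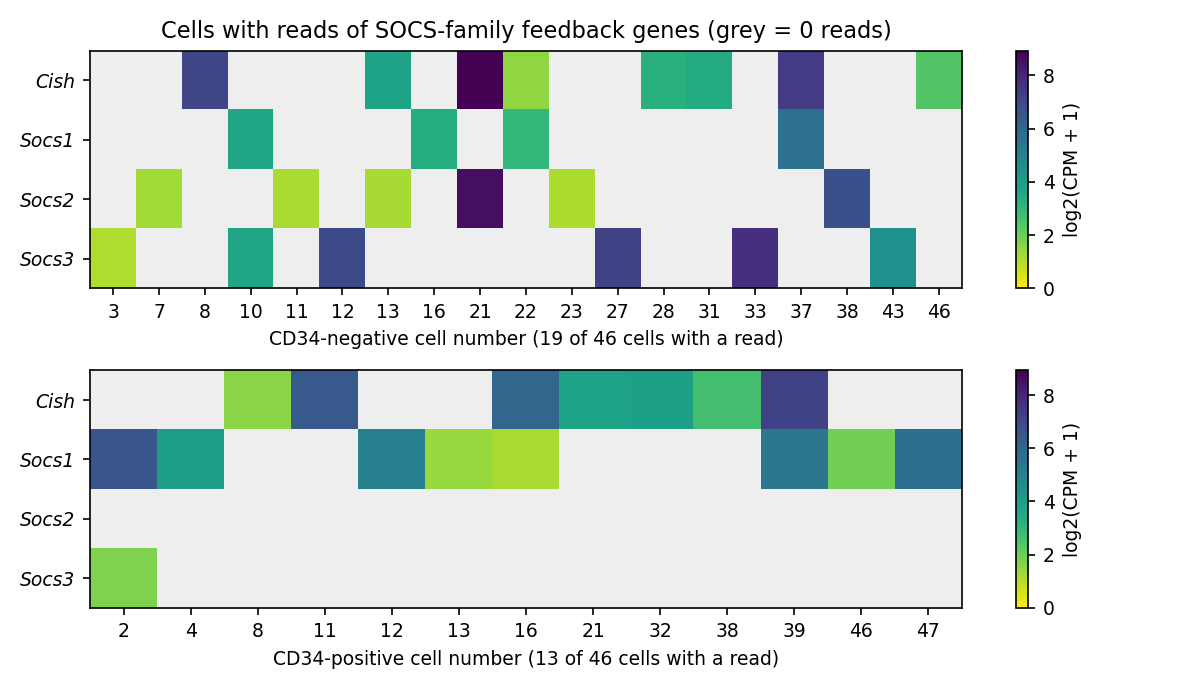
All cells with a read of Cish, Socs1, Socs2 or Socs3 before drawing to a fixed depth, by cell number, with the colour giving log2 of CPM plus 1 and grey marking 0 reads. The 19 CD34-negative cells hold all 6 Socs2-reading cells and 6 of the 7 Socs3-reading cells, and cell 21 is the darkest for both Cish and Socs2.

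STAT dimers bind palindromes of the form TTCNNNGAA, and STAT6 also binds a form with 1 more base in the middle. Both were searched in the 250 bases before RefSeq transcript starts (GRCm38.p6). Each reads the same on both strands, and matches were allowed to overlap. Windows were at hand for 9 of the 10 genes, 11 windows in all, and not for Socs2. TTCNNNGAA was found in 1 of these 11, before Socs3, and in 7.02% of 32851 windows of all genes. The longer form was found in 0 of the 11 and in 5.85% of all windows. The stretch before Socs3 is shown because it holds the one match, from base 250 to base 101 before the start (chr11:117969467-117969616, minus strand), with the match in capitals, 154 to 146 bases before the start. The GENCODE span of Socs3 given above begins farther upstream than the RefSeq start, so the stretch lies within that span, where it overlaps 0 annotated exons.
Socs3: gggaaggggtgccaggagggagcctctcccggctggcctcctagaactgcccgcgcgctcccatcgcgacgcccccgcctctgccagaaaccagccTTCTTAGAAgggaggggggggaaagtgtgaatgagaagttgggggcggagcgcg

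The 10 genes were set beside the 12460 genes that had a read in 10 or more of the kept cells. The filter passed 8 of them and left out Socs2, with reads in 6 cells, and Socs3, with reads in 7. Of all tested genes, 21.7% were at least 2-fold higher and 10.1% at least 2-fold lower in CD34-positive cells. Of the 8 members 1 was past 2-fold upward, Socs1, and 1 downward, Cish, and both rested on single cells as described. Of all tested genes 41.1% had a log2 fold under 0, and 5 of the 8 members did: Jak1, Jak2, Stat5b, Stat6 and Cish. The median log2 fold was -0.76 over these 8 genes and -0.85 over all 10 with Socs2 and Socs3, which the filter left out, against 0.19 over all tested genes. With ERCC scaling the median of the 10 turned to 0.11, while that of all genes moved to 1.04. The number of members found per cell at 200000 reads had a median of 6 in both gates (5.46 ± 1.03 and 5.50 ± 0.888, SD over n = 46 cells each). The median number of all genes with a read, before drawing, was 5303.5 per CD34-negative and 7511.5 per CD34-positive cell.

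**Figure D4:**
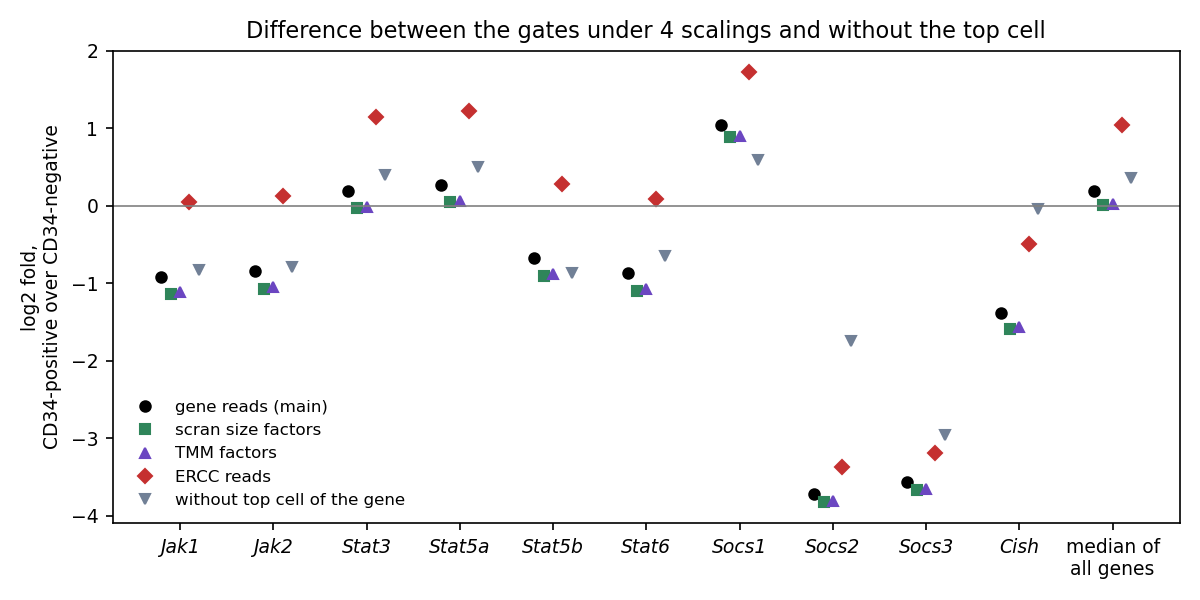
Log2 fold of CD34-positive over CD34-negative for each gene and for the median of all tested genes, under scaling by gene reads (black), scran size factors (green), TMM factors (purple) and ERCC reads (red), and after leaving out each gene's top cell (grey). Jak1, Jak2, Stat5b and Stat6 lie between -1.14 and -0.65 except with ERCC reads, where they lie between 0.052 and 0.29, and Cish moves to -0.04 without its top cell.

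Upstream of the kinases, 25 receptor subunits were examined, of which 15 had reads in at least 10 cells. Relative to gene reads, 7 of the 15 were at least 2-fold lower and 1 at least 2-fold higher in CD34-positive cells, with a median of -0.79, beside 10.1% and 21.7% of all tested genes. The common beta chains were the most abundant. Csf2rb, the shared chain of the IL-3, IL-5 and GM-CSF receptors, ran from 114.1 to 8978 CPM with a median of 3048 CPM in CD34-negative cells and from 36.7 to 3567 CPM with a median of 1221 CPM in CD34-positive cells. Its summed level was 3398 and 1334 CPM (log2 fold -1.35). Csf2rb2, the mouse IL-3-specific beta chain and a close paralog whose reads may be shared with it, stood at 1566 and 500.0 CPM (-1.64). Both were found in all 92 cells. With ERCC scaling the log2 folds of these beta chains were -0.38 and -0.68, and those of Jak1 and Jak2 0.052 and 0.12. That scaling shifts the folds of well-read genes by nearly the same amount. Which signs held therefore followed from the size of each fold relative to gene reads. Il3ra, the IL-3-binding chain, was at 143.3 and 103.02 CPM (-0.47, and 0.49 with ERCC scaling).

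The other receptor chains past 2-fold were Il7r, part of the TSLP receptor, at 166.5 and 26.4 CPM (-2.61) and in 31 and 8 cells at 200000 gene reads, Il4ra at 53.3 and 12.4 CPM (-2.02), Il10ra at 102.0 and 3.86 CPM (-4.41), Il10rb at 48.0 and 20.9 CPM (-1.16), Ifnar2 at 211 and 69.5 CPM (-1.59) and, upward, Ifngr1 at 63.0 and 132.1 CPM (1.06). Leaving out 1 CD34-positive cell moved Il4ra to -3.30 (cell 1, with 64.2% of its gate's reads), Il10ra to -5.22 (cell 37, with 55.2%) and Il7r to -3.22 (cell 23). With ERCC scaling, which shifts well-read genes alike, the 7 lower chains lay between -3.55 for Il10ra and -0.23 for Il10rb. Crlf2, the specific chain of the TSLP receptor, was at 59.6 and 69.7 CPM. Epor, the erythropoietin receptor, did not pass the filter, with 0 reads against 373 reads in 4 CD34-positive cells. Il5ra and Lifr had 0 reads in both gates, and Il6st, which encodes gp130, had 83 and 11 reads, of which cell 10 held 76 and CD34-positive cell 6 all 11. In all, 10 of the 15 tested chains had a log2 fold under 0, beside 41.1% of all tested genes. One of the 10 was Il6ra, at -0.79, which was 0.11 without CD34-negative cell 10. The 5 above 0 were Ifngr1, Csf2ra (0.96, and 1.29 without CD34-negative cell 31), Il2rg (0.88), Ifnar1 (0.83) and Crlf2. The fold of Ifngr1 was within 2-fold with scran factors (0.83), with TMM factors (0.85) and without its top cell (0.89), and it was 1.39 without CD34-negative cell 10. Il10rb was also within 2-fold without its top cell (-0.92). Ifngr2, the other chain of the interferon gamma receptor, had a log2 fold of -0.69, and 0.26 with ERCC scaling.

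Of the 12 ligands only Il4, Il6, Il13 and Osm had reads in at least 10 cells. Relative to gene reads all 4 were lower in CD34-positive cells, with a median log2 fold of -1.20, beside 41.1% of all tested genes with a log2 fold under 0. The difference was past 2-fold for 3 of them, Il4, Osm and Il13, beside 10.1% of all tested genes, and for Il13 (-1.08) it was -0.58 without CD34-negative cell 6. Il4, a hallmark cytokine of basophils, stood at 138.3 and 55.1 CPM (-1.31) and was found in 42 and 36 cells at 200000 gene reads. Il6 was at 239 and 136.2 CPM (-0.81, and 0.15 with ERCC scaling) and Osm, oncostatin M, at 112.8 and 19.7 CPM (-2.46). Il3, Csf2, Il10 and Ifng had 0 reads in both gates.

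Among the remaining kinases and STAT genes, Tyk2 stood at 134.7 and 163.5 CPM (0.28), Jak3 at 44.2 and 87.0 CPM (0.96, and 1.52 without CD34-negative cell 7) and Stat2 at 56.2 and 41.4 CPM (-0.43). Stat4, the STAT protein of the IL-12 receptor, was the one gene past 2-fold among the 5 of this list, with 3693 reads in CD34-negative and 961 in CD34-positive cells (-1.76), with a read in 35 and 27 cells at 200000 gene reads. With ERCC scaling Stat4 was at -0.81 and Stat2 at 0.52. Of 17 other negative regulators, 16 were tested, with 0 past 2-fold upward and 3 downward, beside 21.7% and 10.1% of all tested genes: Pias1 at 150.5 and 62.9 CPM (-1.25), Pias3 at 78.2 and 36.2 CPM (-1.09) and Usp18 at 24.8 and 10.4 CPM (-1.18). CD34-negative cell 38 held 72.2% of the Usp18 reads of its gate, and the fold was 0.51 without it. Pias3 was within 2-fold, at -0.88, without its top cell. With top cells left out, Pias2 (1.51), Pias4 (1.03) and Ptpn11 (1.43) were past 2-fold upward, beside 25.8% of all genes. With ERCC scaling 8 of the list were past 2-fold, all upward, beside 51.8% of all genes. Pias1, Pias3 and Usp18 were then within 2-fold. The most abundant of the 17 were the phosphatases Ptprc (CD45, 651 and 443 CPM) and Ptpn6 (SHP-1, 228 and 144.4 CPM) and the adaptor Sh2b3 (185.3 and 96.8 CPM). Without CD34-positive cell 2 the fold of Sh2b3 was -1.09. The folds of Ptprc, Ptpn6 and Sh2b3, -0.55, -0.65 and -0.93, turned to 0.41, 0.31 and 0.03 with ERCC scaling. Ptpn6 and Ptprc were found in most cells, unlike Socs1, Socs2, Socs3 and Cish: Ptpn6 had a read in 39 and 42 cells at 200000 gene reads and Ptprc in 46 and 45. Much of the list was sparse, however. The median over CD34-negative cells was 0 CPM for Socs4, Socs5, Socs6, Socs7, Pias2, Pias4, Ptpn2, Cbl, Cblb and Usp18.

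Known STAT5 targets, a list that shares Osm and Il4ra with the lists above, numbered 15, of which 13 had reads in enough cells. Of these 2 were past 2-fold upward and 3 downward, beside 21.7% and 10.1% of all tested genes, with a median of -0.49. Bcl2, a survival gene, was higher in CD34-positive cells, at 39.3 and 164.9 CPM (2.04, and 2.67 without CD34-negative cell 31), with a median over cells of 0 and 128.1 CPM and a read in 17 and 41 cells at 200000 gene reads. Myc, a growth regulator, was at 59.5 and 127.1 CPM (1.08), and 0.52 without its top cell. Osm and Il4ra, given above, and Id1, at 75.1 and 30.6 CPM (-1.27, and -0.94 without its top cell), were lower. The kinase gene Pim1 was at 42.2 and 21.9 CPM (-0.91, and -1.09 without CD34-positive cell 37) and Mcl1 at 343 and 229 CPM (-0.58). Gata2, the most abundant of the list, was at 2889 and 1919 CPM (-0.59). With ERCC scaling these 3 turned to 0.02, 0.38 and 0.38. Osm, Il4ra and Id1 were then at -1.52, -1.10 and -0.32, and Bcl2 and Myc at 3.00 and 2.04. That scaling raises well-read genes alike, so genes above 0 could not turn, and 51.8% of all genes were then past 2-fold higher.

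**Figure D5:**
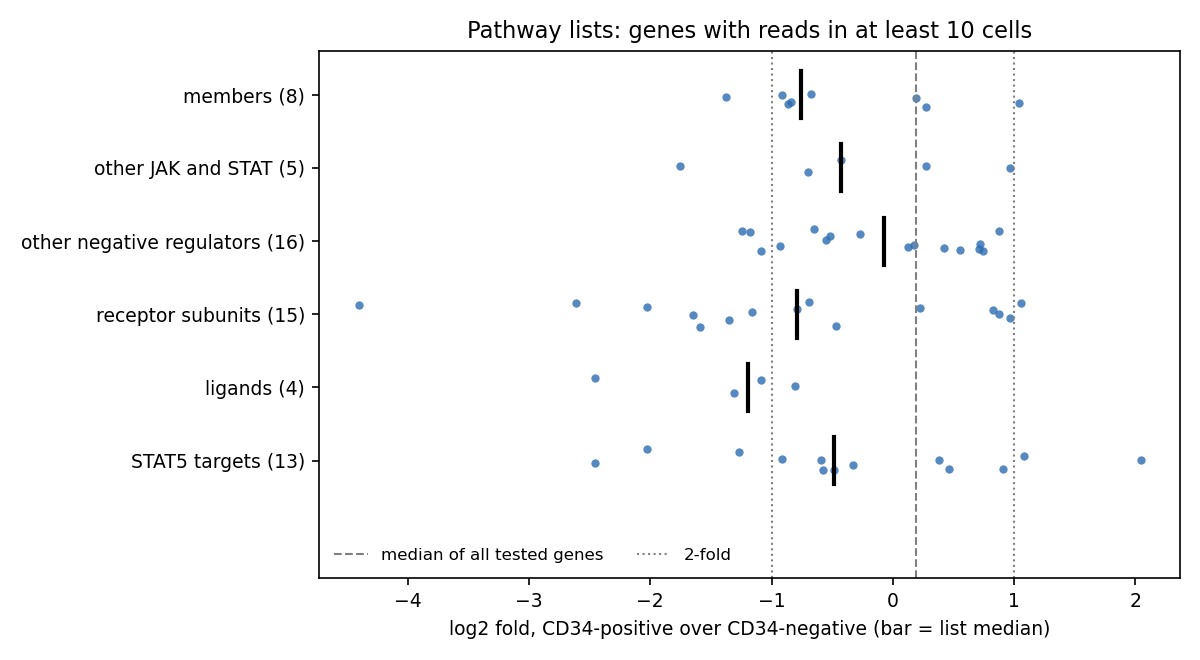
Log2 folds of the genes with reads in at least 10 cells in each pathway list, 1 point per gene, with a black bar at the list median, dotted lines at 2-fold and a dashed line at the median of all genes. Receptor subunits and ligands have medians of -0.79 and -1.20, while other negative regulators have a median of -0.07 and points on both sides.

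Correlations between members across the cells of a gate were weak. Spearman correlations of CPM were computed over the 46 cells of each gate, where cells share a plate and the counts are sparse. Jak1 and Jak2 had a rho of 0.12 in CD34-negative and 0.03 in CD34-positive cells. Stat5a and Stat5b had 0.07 and -0.28. The pair with the highest mean of the 2 gates among the 6 JAK and STAT genes was Jak2 and Stat6, at 0.32 and 0.33, and the lowest was Jak1 and Stat5a, at -0.22 and -0.36. Some pairs differed between the gates: Stat3 had a rho of 0.07 and 0.33 with Stat5a and of -0.00013 and 0.32 with Jak2, a difference that was not tested. Jak2 also had 0.12 and 0.33 with Csf2rb. Among 4929 other genes with reads in at least 20 cells of each gate, the ones most like Jak2 by mean rho were Gabbr1 (0.53 and 0.40) and Arhgap9 (0.44 and 0.44). The nearest to Jak1 were Pttg1ip and Emilin2, to Stat3 Gfpt1 and Prrc2c, to Stat5a Ypel5 and Myo1c, to Stat5b Chst15 and AI467606, and to Stat6 Trip12 and Snrnp70, with mean rho between 0.36 and 0.43. These are the highest of many values in sparse counts and stand as a description. The rho of the 6 genes with gene reads per cell lay between -0.20 and 0.31.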

How the data were processed

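Polyadenylated RNA of 94 single cells was copied to full-length cDNA beside ERCC spike-in RNA, and 50 bp of 1 end of each fragment were read, per the labels' protocols. The authors deposited 1 table of whole read counts per gene, with no normalization. The submitters' processing notes name GSNAP, HTSeq 0.5.3p3 and the build mm10. The annotation and strand setting are not given in the sources used here. Genes took 32.4% of all reads and ERCC 3.97%, while 7.68% were ambiguous, 33.0% fell on no feature and 22.9% were not aligned. Only gene reads entered library sizes.

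A cell was kept if it had 50000 or more gene reads, 1000 or more genes, and under 20% mitochondrial and 50% ERCC reads. Each well was meant to hold 1 sorted cell, so doublets were not called, and cells were not clustered. CPM of a gate are its summed reads of a gene over its summed gene reads. Detection was compared after drawing 200000 gene reads per cell without replacement. Shares carry exact Clopper-Pearson and sums exact Poisson 95% intervals, and the interval of a fold pairs the opposite ends of the intervals of both gates. Positions and exon lengths come from GENCODE M21, on the mm10 assembly, and the promoter from RefSeq. Symbols were matched for 45143 of 46078 identifiers.

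The members, gene lists and rules were chosen with earlier results of these data known. The naming rule took all members, list genes of at least 10 CPM in a gate with a 2-fold difference, the 3 most abundant of each list, and, for the 6 members read in 20 or more cells, the 2 genes of highest mean within-gate rho. Other list genes given were chosen after their values were seen. Some list genes are not reported here by name. The fold and drawing steps were tested on simulated data. The alternatives left out the cell filter or single cells, averaged CPM over cells, or changed the scaling (scran size factors, TMM factors of edgeR, ERCC reads, no mitochondrial genes), the pseudocount (0.1 or 10 CPM) or the detection rule. R 4.3.3 ran scran 1.30.0 and, for TMM factors alone, edgeR 4.0.16, and all else was computed in Python 3.11.15 with pandas 2.3.3, scipy 1.17.1 and numpy 2.4.6.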

Additional observations from a re-analysis of the deposited data

Results flagged for a closer look

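One cell of each gate was left out for few gene reads, and the reads of the JAK and STAT genes in these cells entered no comparison above. CD34-positive cell 3, with 31504 gene reads, had 13 Jak1 reads, 11 Jak2 reads, 7 Stat5a reads and 5 Stat5b reads, each above the limit of 3 reads that a count of 0 allows. At 413 CPM for Jak1 and 349 CPM for Jak2 the cell lay within the range of the kept cells of its gate. CD34-negative cell 20, with 24565 gene reads, had 1 Jak1 read and 3 Jak2 reads, which is not above that limit.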

How the results depend on the processing

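No paired analysis was possible because a number in a title names a cell and links it to no other, and nothing here was tested. For all changes given here, the cause was not tested. With ERCC scaling the sign turned for the median of the 10 members (0.11), Jak1 (0.052), Jak2 (0.12), Stat5b (0.29), Stat6 (0.094) and the medians of the other JAK and STAT genes (0.52), other negative regulators (0.87) and STAT5 targets (0.48), and the ligand median was -0.47. Members past 2-fold then numbered 3 in place of 2, all higher in CD34-positive cells (Stat3, Stat5a and Socs1). Of the other JAK and STAT genes there were 2 in place of 1, both higher (Jak3 and Tyk2), while Stat4 was within 2-fold. The other negative regulators past 2-fold were 8 in place of 3, and these 8 were all higher. Pias1, Pias3 and Usp18, the 3 of the main scaling, were then within 2-fold. Of the ligands 1 in place of 3 was past 2-fold, Osm, which was lower. Of all genes, 51.8% were past 2-fold higher and 2.25% lower with this scaling. Stat3 turned to -0.034 with scran and -0.011 with TMM factors, and Socs1 to -0.093 in cells 7 to 42. Members past 2-fold, 2 of 8, became 4 with scran factors, 4 with TMM factors, 0 with a pseudocount of 10 CPM, 0 without the top cell of each gene, 1 in cells 7 to 42 and 4 of 10 with no filter on low genes. The shares of all genes past 2-fold higher and lower were then 17.4% and 14.4% (scran), 17.8% and 13.9% (TMM), 11.2% and 5.75% (pseudocount of 10 CPM), 25.8% and 6.09% (without top cells), 22.1% and 10.9% (cells 7 to 42) and 8.60% and 4.49% (no filter). Without the top cell of each gene the negative regulator median was 0.50 and 2 other JAK and STAT genes were past 2-fold, as in cells 7 to 42. Negative regulators past 2-fold were 1 with a pseudocount of 10 CPM and 5 in cells 7 to 42. With single cells left out in turn there were 1 (without CD34-negative cell 21) to 3 members, 1 to 2 (without CD34-positive cell 34) other JAK and STAT genes and 2 to 5 (without CD34-negative cell 1) negative regulators past 2-fold, and a negative regulator median of -0.18 to 0.13 (without CD34-negative cell 38). Of 120 other values of member folds 58 stayed within the counting interval, and of 80 shares of cells 71 did. The length of the longest coding transcript, chosen after seeing the data, moved the Jak2 to Jak1 ratio per kilobase from 1.35 to 0.917 in CD34-negative and from 1.42 to 0.964 in CD34-positive cells. At 50000 gene reads per cell the share of cells with a read left its interval for Stat5a in CD34-negative cells (54.3%) and Stat6 in CD34-positive cells (56.5%). With at least 10 reads required, it did so for Stat5a (41.3% and, CD34-positive, 50.0%), Stat6 (58.7% and 54.3%), Stat3 (50.0%) and Stat5b (76.1%) in CD34-positive cells, and Socs1 in CD34-negative cells (2.17%).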

Other observations

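CD34-negative cell 21 stood out within its gate, and was looked at after its values were seen. Among the 46 kept cells of the gate it had the highest level of Stat6 (1574 CPM, gate median 67.6), Il4ra (639 CPM, gate median 0), Cish (486 CPM), Socs2 (388 CPM) and Ptpn11 (655 CPM, gate median 0.548), the gene of the phosphatase SHP-2. Its Jak2 level, 1380 CPM, was the fourth highest, and it had 0 reads of Stat5a and Stat5b. The cell had 847577 gene reads, 4756 genes with a read and 0.873% mitochondrial reads. Its basophil markers summed to 13729 CPM, its monocyte and dendritic cell markers to 593 CPM, and its T cell and mast cell markers to 0 CPM. As 1 cell, it carries no replicate.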
